A study of Rattus norvegicus with 35 samples.

Results

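Rat converted hypoblast stem cells were divided by whether they held reads of Sox7, and the transcriptomes of the resulting groups were described. The members were chosen by measured values. Of 34 single cells, those with at least 4000 records above 0 were taken as gene-rich, which gave 19 cells. These were split at a Sox7 level of 5 CPM (counts scaled to a common total per cell) into 8 Sox7-positive and 11 Sox7-negative cells. All cells came from rat embryonic stem cells that had been converted in medium containing serum, LIF, PDGF and EGF, and were taken on day 12. Single cells were prepared on the C1 system, which captures each cell in its own chamber, and 1 further library was a bulk control of the same population. The labels give no embryonic stem cell line, sex, culture or batch per cell. The cells are therefore 1 sample, the groups were made from the data themselves, and no difference between them was tested. SDs describe the spread between cells. Cells are named by their labels.

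The hypoblast, or primitive endoderm, is the epithelium of the blastocyst that gives rise to the visceral and parietal endoderm of the yolk sac. SOX7 is a transcription factor of the SOXF group, with SOX17 and SOX18. In the mouse it appears late in primitive endoderm formation, after GATA6, GATA4 and SOX17, and is kept in the parietal endoderm, whose cells migrate and secrete a thick laminin and collagen IV basement membrane. SOX7 is also expressed in endothelial progenitors. The question put to these cells was whether those with Sox7 reads carried other features of later primitive or parietal endoderm.

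Sox7 reads were few and spread widely. In the positive cells the Sox7 level was 6.50 CPM in C05, 12.9 in C15, 15.8 in C23, 47.8 in C24, 74.9 in C13, 119 in C37, 239 in C44 and 268 in C96. These levels rested on 2, 4, 4, 12, 22, 29, 78 and 47 reads. Every negative cell held 0 reads, so nothing lay between 0 and C05, the member just inside the threshold. A count of 0 still allows up to 3 reads, which in the negative cells corresponded to 7.91 to 31.5 CPM (median 9.27). C05 lay below every one of these limits, C15 below those of C40 and C46, and C23 below that of C46, so at this depth the weakest positive cells could not be told apart from some negative cells. The bulk library held 0 Sox7 reads, which allows up to 63.7 CPM. Limits and intervals cover counting error of independent reads only. The labels name no molecular identifiers, and between 62.1% and 70.4% of all counts above 0 in a gene-rich cell were even numbers, so reads were not independent and the limits are too narrow.

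**Figure D1:**
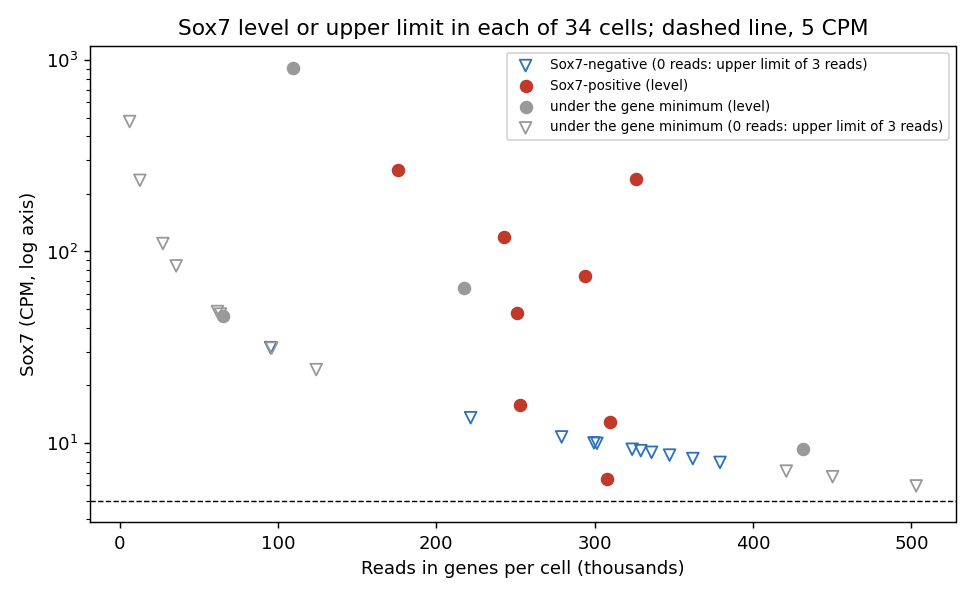
Sox7 level in CPM (log axis) against reads in genes per cell for 34 cells. Filled circles are levels and open triangles are the upper limit that a count of 0 allows. Among gene-rich cells the positive ones span 6.50 to 268 CPM, and C05 lies below the limits of all 11 negative cells.

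The positive cells had the higher median number of genes detected and the lower median number of reads. The positive cells held 175639 to 326048 reads in genes (median 273406) and the negative cells 95359 to 379141 (median 323680). Genes with a read numbered 4470 to 5514 in the positive cells (median 5084) and 4028 to 5100 in the negative cells (median 4478). The higher gene number of the positive cells goes with the higher shares of cells given for them here, and its part in these was not tested. No pair among the 19 cells held identical counts. Across genes, which are no replicates, Pearson's r between cells on the log2(CPM + 1) scale had a median of 0.67 among positive cells, 0.62 among negative cells and 0.64 between the groups. The negative cell C46 stood apart. It was the shallowest gene-rich cell, and with 4028 genes it was the one just inside the gene minimum, while C10 with 3976 genes was just outside. It was also the only one of the 19 with Col1a2 at 5 CPM or more, at 252 CPM, and its Vim level of 1510 CPM was the highest among them. It held 0 reads of Gata4, Sox17 and Foxa2, and the other 18 cells all had more Sparc, Lama1, Lamc1, Col4a1, Ctsl and Srgn. The main ratios of means that rest on it are given with and without it. Values on the mean of log2(CPM + 1) are given with it only.

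A gene was compared when the average of both group means was at least 20 CPM and it reached 5 CPM in at least 6 of the 19 cells. It was called past the fold when the ratio of group means, each with 1 CPM added, was at least 2 with all cells and again without the highest cell of the higher group. Sox7 itself was left out because it chose the groups. Of 5186 genes compared, 365 (7.04%) were past 2-fold on the side of the positive cells and 311 (6.0%) on the side of the negative cells. Without C46 the numbers were 358 and 299 of 5090. The median log2 ratio of positive over negative cells was 0.03. For no gene among the 5186 were the ranges of the 8 and the 11 cells separate. The highest cell carried much of many ratios, since 782 and 687 genes were past 2-fold before it was left out. With the mean of log2(CPM + 1) in place of the ratio of means, a measure that weighs detection more, 1051 genes (20.3%) were past the fold on the positive side and 394 (7.6%) on the negative side, and the median moved to 0.35.

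**Figure D2:**
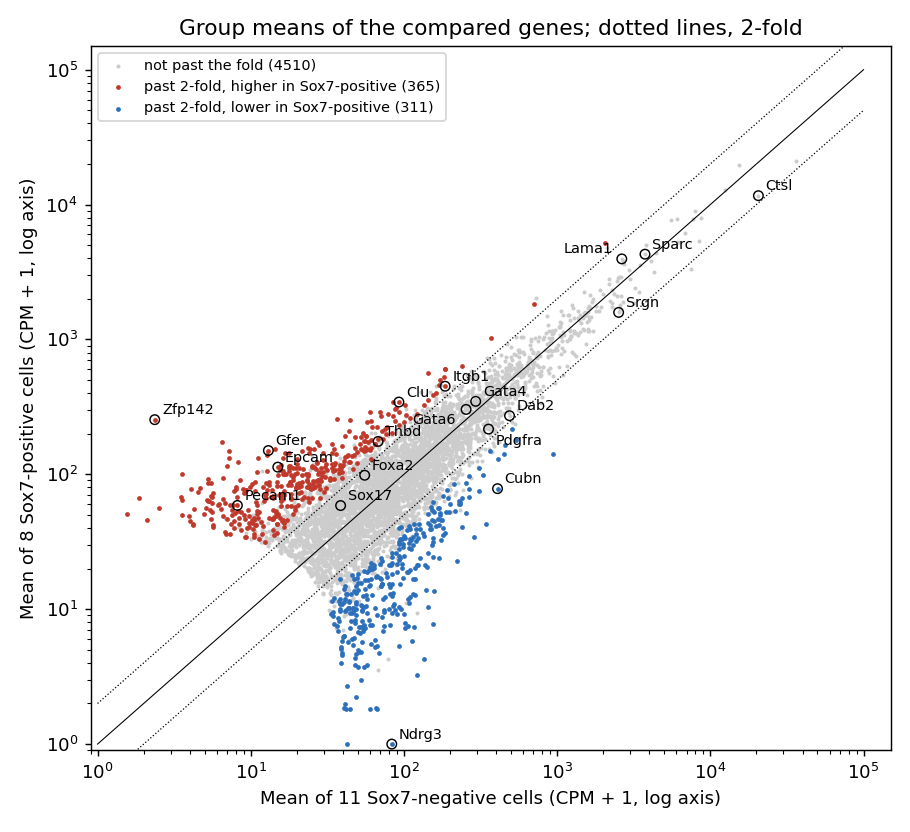
Mean level over 8 Sox7-positive cells against the mean over 11 Sox7-negative cells, in CPM + 1 on log axes, for the 5186 genes compared. Red (365) and blue (311) genes are past 2-fold also without the highest cell. The endoderm genes Gata6, Gata4, Sox17, Sparc and Lama1 lie between the dotted 2-fold lines.

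Transcription factors of the primitive endoderm were present in both groups at mean levels less than 2-fold apart. Of 16 members of this list in the table, 9 were compared besides Sox7 and 0 were past the fold in either direction, with a median log2 ratio of 0.24 (0.10 without C46). At the shares over all genes, 7.04% and 6.0%, a list of this size would hold fewer than 1 such gene on either side. On the mean of log2(CPM + 1), by contrast, 6 of the 9 were past the fold on the positive side, beside 20.3% of all genes. These were Gata6 (1.27), Gata4 (1.31), Klf5 (1.55), Lrp2 (1.56), Sox17 (1.64) and Foxa2 (1.70). All 6 values include C46, at 0 CPM of Gata4, Lrp2, Sox17 and Foxa2 and at 20.97 CPM of Gata6 and Klf5. This measure was not run without C46, so how far the 6 rest on that cell was not tested. Sox17, the closest relative of Sox7 with reads in these cells, ranged from 15.8 to 95.1 CPM in the positive cells (median 49.6) and from 0 to 138 CPM in the negative cells (median 18.5). All 8 positive cells and 9 of the 11 negative cells reached 5 CPM of Sox17, and the highest level, in C80, was in a negative cell. The means were 57.7 ± 30.9 and 37.6 ± 43.9 CPM, a log2 ratio of 0.60 that was 0.47 without C46.

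Gata6, a factor that acts at the start of primitive endoderm specification in the mouse, ranged from 169 to 561 CPM in the positive cells (median 285) and from 0 to 588 CPM in the negative cells (median 256). The positive cells lay inside the range of the negative ones, where C40 held no read and C46, C33 and C80, at 20.97, 30.4 and 141 CPM, were also below every positive cell. Gata4, which follows Gata6, ranged from 95.3 to 583 CPM (median 377) against 0 to 757 CPM (median 287). Here C38 and C33, with 5.28 and 48.6 CPM, and C46 with none were below every positive cell. The log2 ratios of the means were 0.25 for Gata6 and 0.24 for Gata4, and 0.12 and 0.10 without C46. With a minimum of 3500 genes the log2 ratio of Gata6 was −0.23. With all 34 cells in place of the 19, the log2 ratio of Gata4 was −0.19 and that of Sox17 was −2.65. There C88, a negative cell with 12750 reads, held 11765 CPM of Sox17.

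Foxa2, a forkhead factor of endoderm, was at 97.4 ± 106 CPM in the positive cells and 54.4 ± 73.8 CPM in the negative cells, with 7 of 8 and 7 of 11 cells at 5 CPM. Its log2 ratio of 0.83 was 0.25 without C24, the highest positive cell at 326 CPM. Klf5, a Krüppel-like factor shared with pluripotent cells, was at 221 ± 83.4 and 153 ± 149 CPM. Both were thus on the positive side by less than 2-fold, but with the threshold at 50 CPM of Sox7 the ratio of Foxa2 was −0.59 and that of Klf5 −0.07, and with all 34 cells that of Klf5 was −2.78. On the other side were Pdgfra, the PDGF receptor of the primitive endoderm, with a log2 ratio of −0.72, and Dab2, an endocytic adaptor, with −0.85. Dab2 reached 1354 CPM in the negative cell C26 and had a median of 525 CPM in the negative and 291 CPM in the positive cells. The homeobox gene Rhox5 (−0.07) and the endocytic receptor gene Lrp2 (−0.26) completed the members compared. Lrp2 nevertheless reached 5 CPM in 7 of 8 positive and 5 of 11 negative cells.

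Of the members below the compared level, Foxa3 had 0 reads in all 19 cells and Bmp4 had 1 read. Hnf4a had 0 reads in the positive and 15 in the negative cells, Cited1 0 and 8, and Foxq1 10 and 58. Hnf4a and Cited1 were each at 5 CPM in 1 negative cell. In the wider SOX family, 13 of 19 members were in the table, Sox17 was the only one compared, and 7 had 0 reads, among them Sox18, the remaining member of the SOXF group.

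Parietal endoderm genes lay on both sides of the Sox7 split. Of 17 members in the table, 12 were compared and 0 were past the fold in either direction, beside 7.04% and 6.0% of all genes, a count near that background. On the mean of log2(CPM + 1), Pth1r (2.08), Stra6 (3.00) and Thbd (3.05) were past it on the positive side, 3 of 12 beside 20.3% of all genes. The median log2 ratio was −0.24 (−0.06 without C46), with 5 members on the positive side, beside 0.03 over all genes compared. The summed level of the list ranged from 10243 to 32698 CPM in the positive cells and from 2779 to 62919 CPM in the negative cells, with Ctsl the most abundant member by mean level in both groups.

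The member nearest to the fold was Thbd, which encodes thrombomodulin, a receptor of thrombin long used as a parietal endoderm marker. Its level in the positive cells was 0 CPM in C15, 34.2 in C96, 49.1 in C44, 123 in C24, 169 in C05, 252 in C13, 313 in C37 and 455 in C23. In the negative cells it ranged from 0 to 385 CPM with a median of 6.68, and only C43 (385 CPM), C32 (259.5 CPM) and C40 (54.1 CPM) were above 12.2 CPM. The groups overlapped at both ends, although 5 of the 8 positive cells and 2 of the 11 negative cells exceeded 100 CPM. The means of 174 ± 157 and 66.8 ± 130 CPM gave a log2 ratio of 1.37, which was just below 1 without C23 and so not past the fold. Thbd did pass with a pseudocount of 0.1 CPM, with TMM scaling, among cells with at least 200000 reads, and when C15, C24, C32, C43, C44 or C96 was left out. With all 34 cells its log2 ratio was −1.42.

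Stra6, the receptor for retinol-binding protein, was at 5 CPM in 5 of 8 positive cells (62.5%, exact Clopper-Pearson interval 24.5% to 91.5%) and in 1 of 11 negative cells (9.09%, interval 0.23% to 41.3%). Its highest values were 372 CPM in C23 and, among negative cells, 148 CPM in C32. The log2 ratio of 2.28 was 0.92 without C23. Pth1r, the receptor for parathyroid hormone-related protein, a signal for parietal endoderm in the mouse, had a log2 ratio of 0.69, and Snai1, a repressor of epithelial genes, had 0.79. Without their highest positive cell these were 0.19 and −0.07, so each rested largely on 1 cell.

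The most abundant parietal genes were on the negative side or near equality. Ctsl, the cathepsin L gene, ranged from 3205 to 21813 CPM in the positive cells (median 12064) and from 356.5 to 47242 CPM in the negative cells (median 15485). The 5 highest Ctsl cells (C33, C25, C26, C38 and C43) were all Sox7-negative, but so were 2 of the 3 cells at 3205 CPM or lower, C72 and C46. The log2 ratio was −0.82, or −0.96 without C46. Srgn, which encodes the proteoglycan core protein serglycin, followed with 1586 ± 645 and 2519 ± 1707 CPM (log2 ratio −0.67). F3, the tissue factor gene, reached 12148 CPM in the negative cell C26 and had a log2 ratio of −0.24, which was 0.48 without C26. Vim, an intermediate filament gene, had −0.37 with C46 and 0.24 without it. Tfpi (−0.84), Krt19 (−0.40) and the collagen chaperone gene Serpinh1 (−0.25) were also on the negative side. Without their highest negative cell, Tfpi was at −0.08 and Krt19 at 0.36, so both rested largely on 1 cell. On the mean of log2(CPM + 1), Tfpi (0.80), Krt19 (0.95), F3 (0.95) and Vim (1.32) were on the positive side. Ctsl, Srgn and Serpinh1 kept their sign there. Plat, which encodes tissue plasminogen activator and is a classical parietal endoderm product, was below the compared level. All of its 63 reads were in 1 positive cell. Fst had 2 reads in each group, and Snai2 and Tfpi2 had 0 in all 19 cells.

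**Figure D3:**
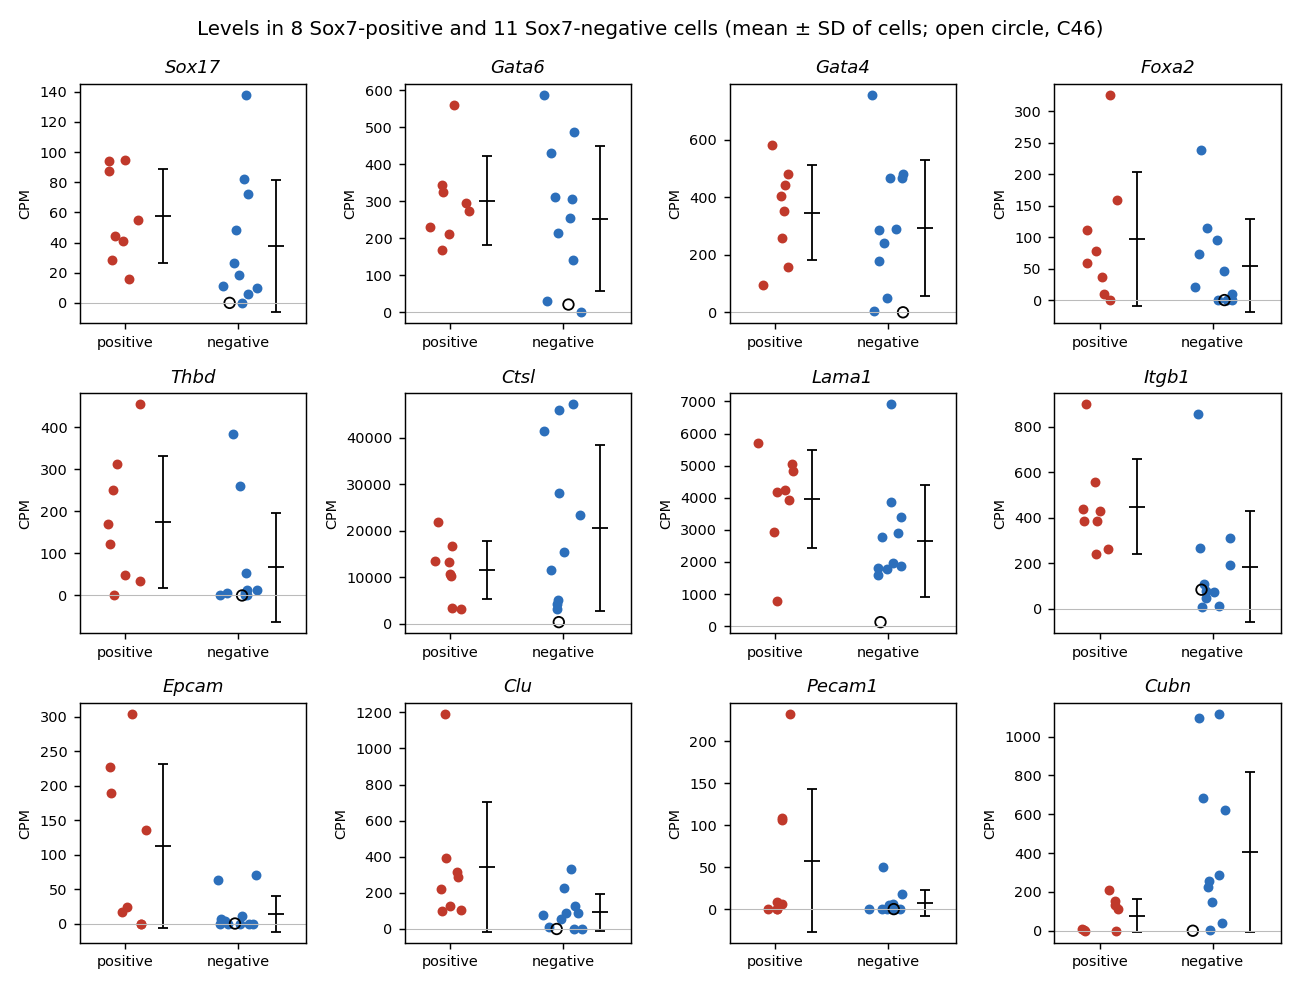
Level in CPM of 12 genes in each of 8 Sox7-positive (red) and 11 Sox7-negative (blue) cells, with the mean ± SD of cells beside the points and C46 as an open circle. The groups overlap for every gene shown, and the highest Ctsl and Cubn cells are Sox7-negative.

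Most compared basement membrane genes had a mean above that of the negative cells, and 1 of them, the integrin gene Itgb1, was past the fold. Of 13 members in the table, 9 were compared, 7 had a ratio above 1, beside 51.7% of all genes compared, and the median log2 ratio was 0.41 (0.45 without C46). The 1 of 9 past the fold is near the 7.04% of all genes. On the mean of log2(CPM + 1), Itgb1 (2.16) and Itga6 (2.52) were past it. Lama1, the laminin alpha 1 chain gene, ranged from 775 to 5711 CPM in the positive cells (median 4212) and from 126 to 6908 CPM in the negative cells (median 1970). Of the 8 positive cells, 6 exceeded the 3873 CPM of C80, as did only C43 among the negative cells, while C15 at 775 CPM was below all negative cells but C46. The means were 3954 ± 1530 and 2642 ± 1740 CPM, a log2 ratio of 0.58 (0.45 without C46). Lamc1, the gamma 1 chain gene, had a log2 ratio of 0.41, Col4a1, a collagen IV chain gene, 0.25 and Sparc, a collagen-binding glycoprotein gene, 0.20. For these genes the difference of the means was smaller than the SD of the negative cells.

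Itgb1, the beta 1 chain of most laminin and fibronectin receptors, ranged from 239 to 897 CPM in the positive cells (median 408) and from 9.12 to 855 CPM in the negative cells (median 83.9). Apart from C38 at 855 CPM, the negative cells did not exceed 311 CPM, and 6 of the 8 positive cells did. The means of 449 ± 207 and 185 ± 243 CPM gave a ratio of 2.42, past 2-fold. Without C46, and likewise without C15, C25, C26, C33, C37, C40, C43 or C72, the gene was no longer past the fold on one or the other part of the rule. With all 34 cells its log2 ratio was 0.17. Itga6, which pairs with Itgb1 in a laminin receptor, was at 140 ± 164 and 48.1 ± 73.9 CPM (log2 ratio 1.52, and 0.91 without C15). Dag1, the dystroglycan gene, another laminin receptor, was on the opposite side (−1.04, and −0.78 without C43). Fn1, the fibronectin gene, had −0.29 with C46 and 0.52 without it, and Nid2 was at 5 CPM in 3 cells of each group. Lama5 had 0 reads in the 19 cells. Of 10 collagen folding genes compared, 0 were past the fold, with a median of 0.05.

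The clearest difference among yolk sac genes was in Cubn, which encodes the endocytic receptor cubilin of the visceral endoderm and was lower in the positive cells. Cubn was at 208 CPM in C05, 152 in C15, 134 in C23, 111 in C24, 6.81 in C13, 6.13 in C44 and 0 in C37 and C96. In the negative cells it ranged from 0 to 1115 CPM with a median of 256, and 7 of the 11 exceeded every positive cell. The means of 77.3 ± 83.7 and 407 ± 412 CPM were 5.21-fold apart. The 4 cells with the most Sox7, C96, C44, C37 and C13, were the 4 positive cells with the least Cubn, an order seen after the values were known. Amn, whose product anchors cubilin at the membrane, had 2 reads in the positive and 28 in the negative cells. Of 25 visceral endoderm genes in the table only Cubn, Apoe and Dkk1 were compared. Cubn was thus 1 of 3 past the fold on the negative side, beside 6.0% of all genes. The apolipoprotein gene Apoe was at 1709 ± 968 and 1590 ± 1228 CPM and Dkk1, a WNT inhibitor gene, had a log2 ratio of −0.58. Ttr and 11 others had 0 reads, and Ihh had 0 reads in the positive and 46 in the negative cells.

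Epcam, an epithelial adhesion gene, was past the fold in the other direction. It was at 303 CPM in C15, 227 in C05, 189 in C37, 135 in C24, 24.5 in C44, 17.02 in C13 and 0 in C23 and C96. In the negative cells it reached 69.9 CPM in C33, 63.2 in C40 and 11.1 or less in the other 9. The means of 112 ± 118 and 14.01 ± 26.2 CPM gave a ratio of 7.54. The other 9 epithelial genes compared were not past the fold, so 1 of 10 was, beside 7.04% of all genes. Cdh1, the E-cadherin gene, had a log2 ratio of 0.42, while the tight junction genes Cldn6 (−0.98) and F11r (−0.66) were on the negative side. Clu, the clusterin gene, a secreted chaperone on the endocytic list, ranged from 99.5 to 1190 CPM (median 254) against 0 to 331 CPM (median 76.3). Its ratio was 3.71, and C37 held the highest level. Of 11 endocytic genes compared, 1 was past the fold on each side (Clu and Cubn), near the 7.04% and 6.0% of all genes.

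Markers of endothelium, the other lineage with SOX7, did not appear as a set. Of 13 list members in the table, Cdh5, Kdr, Emcn, Erg, Sox18 and Cldn5 had 0 reads in all 19 cells. Only 2 members were compared, and 1 of them was past the fold, beside 7.04% of all genes. This was Pecam1, an adhesion gene also expressed by early embryonic cells, at 57.8 ± 85.1 and 7.18 ± 15.3 CPM. It rested on C15 (232 CPM), C13 (109) and C23 (107), and C05, C24 and C96 had none. Flt1, a VEGF receptor gene, was at 160 ± 230 and 100 ± 219 CPM, and Esam had 89 reads in 3 positive cells and none in negative cells. The summed level of the list was 0 to 832 CPM in the positive and 0 to 668 CPM in the negative cells. The fibroblast list had 1 compared gene, Acta2 (−0.19), while Col1a1, Col3a1, Thy1, Lum and Dcn, 5 of its 15 members in the table, had 0 reads. Tagln, a smooth muscle actin-binding gene of this list, was not compared because only 4 cells, all positive, reached 5 CPM. Its level was above the minimum, at 147 ± 274 CPM in the positive cells, with 313 reads there and 0 in the negative cells. The summed level of the list was 38.98 to 956 CPM in the positive and 39.6 to 1542 CPM in the negative cells, and its part in any ratio was not tested. Of the trophoblast, streak and blood lists no member was compared.

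**Figure D4:**
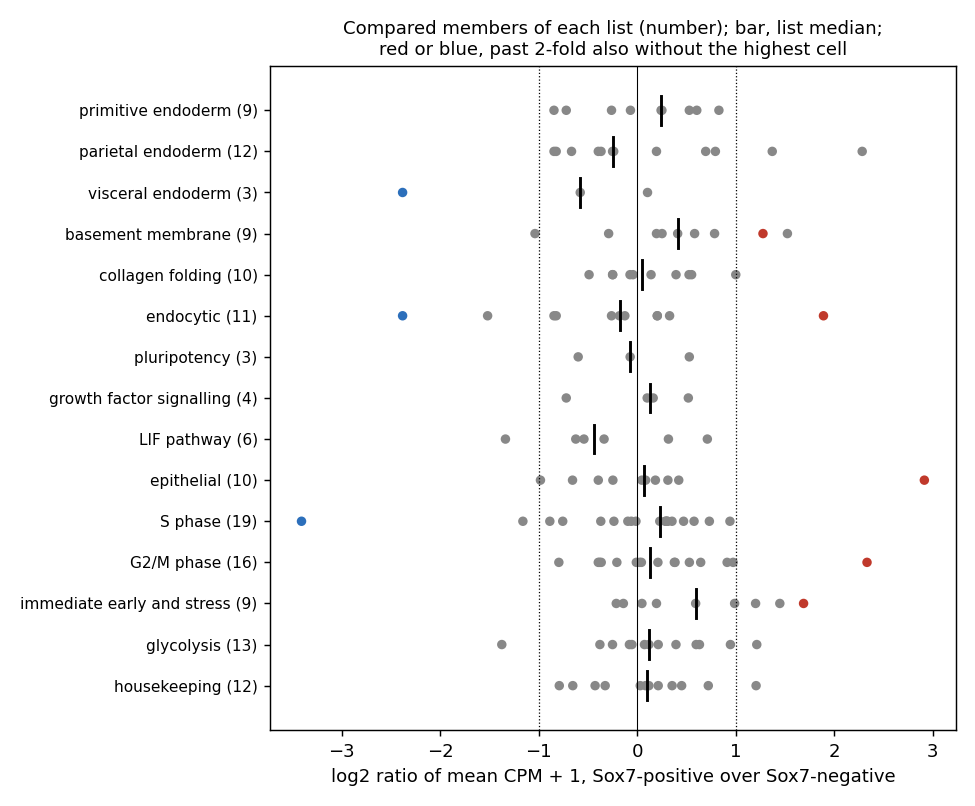
Log2 ratio of group means (CPM + 1), Sox7-positive over Sox7-negative, for the compared members of 15 lists with at least 3 such members. The bar is the list median, and red or blue points are past 2-fold also without the highest cell. The medians lie between −0.58 and 0.59, and no primitive or parietal endoderm gene is past the fold.

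Cell cycle, stress, growth factor and metabolic lists held 0 or 1 gene past the fold each, near the 7.04% and 6.0% of all genes. Of 19 S phase genes compared, Cdc45, a replication helicase gene, was past the fold on the negative side (5.89 ± 11.1 and 72.2 ± 115 CPM). The next were Slbp (−1.16), Gins2 (0.94) and Fen1 (−0.89). Of 16 G2/M genes, Ube2c was past it on the positive side (109 ± 173 and 20.9 ± 53.8 CPM, at 5 CPM in 4 and 3 cells), and Kif11 (0.97), Aurkb (0.91) and Kif20b (−0.80) were not. Jun, an immediate early gene, was past the fold on the positive side (77.6 ± 89.4 and 23.4 ± 34.9 CPM), with Fos (1.45), Gadd45a (1.20) and Atf3 (0.99) on the same side, and the median of the 9 stress genes compared was 0.59. Without C46, Gadd45a was past the fold as well. None of 4 growth factor signalling genes, such as Spry2 (0.52), Fgfr3 (0.16) and Dusp6 (0.10), was past it, nor any of 6 LIF pathway genes, led by Lifr (−1.34), Jak1 (0.71), Jak2 (−0.62) and Ptpn11 (−0.54). The same held for 3 pluripotency genes, with Klf4 at −0.60 and Lin28a at −0.07, for 13 glycolysis genes, led by Slc2a1 (−1.38), Pfkp (1.21), Pfkl (0.95) and Aldoa (0.63), and for 12 housekeeping genes. Among the last were Sdha (1.21), Tbp (0.72) and Rplp0 (−0.65). Without the highest cell of the higher group, the log2 ratio was 0.70 for Slc2a1, −0.17 for Lifr and 0.06 for Jak1. Each of these 3 thus rested largely on 1 cell. Other ratios of this paragraph leaned on 1 cell as well. By the same measure Kif11 was at 0.30, Kif20b at −0.16, Dusp6 at −1.24 and Fgfr3 at −0.26. Jak2 was then at −0.21, Ptpn11 at 0.07, Klf4 at −0.21 and Lin28a at 0.43. The collagen enzyme genes Plod1, just short of 2-fold, Colgalt1 (0.55), P3h1 (0.53) and Plod3 (−0.49) and the recycling gene Rab11a (−1.52) were not past the fold. Without the highest cell of the higher group, P3h1 was at −1.17 and Plod3 at −0.0065. For Rab11a that cell was C46, at 828 CPM, and the ratio without it was −0.65. Of 2 neural genes compared, Tubb3 was at 0.39 and Dcx was past the fold on the negative side, with 2 reads in the positive cells and a ratio interval of 12.8 to 383 that holds the negative mean fixed. Most of the negative Dcx reads were in C33, at 389 CPM. Tubb3 was at −0.39 without its highest positive cell.

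By the ratio without the highest cell of the higher group, the leading genes of each side came from no list used here. On the positive side, ordered by the ratio without the highest cell, these included Zfp142, Nt5c3a, Ccdc93, Plekha1, Itprid2, Ppfibp2, Top1mt, Xab2, Ndrg1, Gpaa1, Mcmdc2, Gfer, Gpd2 and Ppm1b, with log2 ratios from 3.53 to 6.75. Zfp142, a zinc finger gene, was at 665 CPM in C24, 650 in C37 and 617 in C23, at 54.9 or less in the other positive cells and at 9.02 or less in the negative ones. Gfer, which encodes a sulfhydryl oxidase of the mitochondrial intermembrane space, ranged from 24.7 to 259 CPM in the positive cells (median 176) and from 0 to 36.5 CPM in the negative cells (median 12.4). It was the most even of these, with 7 of 8 positive cells above every negative cell. Xab2, a splicing and repair factor gene, reached 5 CPM in 7 of 8 and 2 of 11 cells at 93.2 ± 54.3 and 5.60 ± 15.2 CPM. For Nt5c3a and Itprid2, with 3 and 2 reads in the negative cells, the intervals of the ratio were 26.1 to 370 and 24.9 to 744.

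By the same order, the negative side was led by Ndrg3, Sgsm3, Lss, Ift81, Vopp1, Usb1, Phc3, Thap12, Borcs7, G4, Tank, Nrbf2, Usp30, Mthfd1l and Tmem123. Ndrg3 and Usb1 had no read in any positive cell. Against a floor of 3 reads over the group (1.39 CPM), Ndrg3 at 82.3 ± 127 CPM was at least 59.2-fold higher in the negative cells and Usb1 at 41.8 ± 81.9 CPM at least 30.1-fold. These bounds hold the negative mean fixed. Both genes entered the comparison through the negative cells alone, where each reached 5 CPM in 7 cells. A gene without reads in the other group needed 6 of the 11 negative or 6 of the 8 positive cells to enter. Moreover, 4 negative cells held no Ndrg3 read and only C26, C43 and C72 exceeded 30.04 CPM. Lss, which encodes lanosterol synthase, was at 0.81 ± 2.28 and 65.5 ± 91.5 CPM. Without C46, Top1mt, G4 and Tank were no longer past the fold.

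The genes with the largest differences in detection were picked as extremes from the 5186 compared. Over all of these, the median share at 5 CPM was 75.0% of positive and 72.7% of negative cells. By detection, Fam13b and Ncapd3 reached 5 CPM in all 8 positive and 2 of 11 negative cells (18.2%, interval 2.28% to 51.8%). Ndrg1 did so in 7 of 8 and 1 of 11, and Rnf13, Rnf14 and Tapbp in all 8 and in 3. Nt5c3a, Xab2, Parn and Ints11 followed on that side. In the other direction Ndrg3 and Usb1 were in none of the 8 and in 7 of 11, and Erlec1 and Ythdf1 in 3 of 8 and 10 of 11. Fen1, Ift81, Gga1, Kbtbd2, Cstpp1 and Kdm3a completed that set. Some abundant genes, singled out after their values were seen, were past the fold, most of them with reads in nearly all cells. Zwint, a kinetochore gene, ranged from 3013 to 9315 CPM (median 4998) against 699 to 5151 CPM (median 1944). Hsf2, a heat shock factor gene, ranged from 283 to 931 CPM (median 489) against 0 to 497 CPM (median 89.6). Klf6, a Krüppel-like factor gene, was at 1823 ± 1329 and 702 ± 654 CPM. On the negative side, Fkbp3, a prolyl isomerase gene, was at 218 ± 70.7 and 510 ± 330 CPM, and Timp3, a metalloproteinase inhibitor gene, at 140 ± 124 and 945 ± 1518 CPM. Timp3 reached 5 CPM in all 8 positive cells but in only 8 of the 11 negative ones.

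The cells under the gene minimum, which the split did not use, gave the same measure in other libraries. Of these 15 cells, 4 were at 5 CPM of Sox7 or more and 11 were below. Of the 365 genes past the fold on the positive side, 104 (28.5%) were also at least 2-fold higher in the mean of these 4 cells, beside 27.4% of all 5186 genes, and 46.8% were at least 2-fold lower, beside 40.7% of all. Of the 311 genes on the negative side, 43.4% were at least 2-fold lower and 27.3% at least 2-fold higher. The shares on the side seen in the gene-rich cells were thus close to those of all genes. Of the 15 leading genes of the positive side, 5 were on the same side here, among them Gfer (82.2 and 15.6 CPM, all of the former in C47), Xab2 and Nt5c3a, and 8 were on the opposite side, including Zfp142 (5.73 and 98.3 CPM). Of the 15 leading genes of the negative side, 9 were on the same side here and 5 on the opposite one. Of all genes compared, 39.4% were on the positive side in these cells and 55.8% on the negative side. Epcam (420 and 179 CPM) and Cubn (9.20 and 33.3 CPM) also lay on the side they had in the gene-rich cells, and Itgb1 (81.5 and 394 CPM) did not. These 15 cells held 6288 to 503044 reads and 349 to 3976 genes, so the means lean on few cells.

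The promoter table used here has no entry for Sox7, and no promoter sequence is shown. In the 250 bases before to 50 after a gene's start (RefSeq, GRCr8), the motif AACAAT, a core of SOX binding sites, was searched on both strands. It occurred in 5.02% of the 279 promoters found for genes on the positive side, in 5.06% of 257 on the negative side, in 4.92% of 4148 over all genes compared and in 11.6% of all 27457 promoters. AGATAA, a core of GATA sites, occurred in 4.66%, 6.23%, 5.54% and 11.3%. The motifs can share 2 letters where AGATAA runs into AACAAT, and a match is not a binding site.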

How the data were processed

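The authors deposited 1 table of raw read counts per RefSeq record, with a column for each of 34 cells and the bulk library. TopHat2 and the rn5 build were used, per the submitters' processing notes. The counter, annotation, strand setting and handling of near-identical copies were not given in the sources used here. Of 17201 records, 16209 matched a symbol in the RefSeq table (GRCr8, names only). The other 992 held 2.52% to 8.02% of a cell's reads and stayed in the totals.

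Counts were scaled to CPM by column total in Python 3.11.15 with pandas 2.3.3 and SciPy 1.17.1. With 1 sample per group made from the readout, no test, p-value or doublet caller was run. The code of the comparison was run on simulated counts with known changes and a fixed spread between cells. This checked the size and direction of the ratios, not the genes called in these data. Members and the 22 gene lists were chosen with earlier results of these data known. Named by rule were all compared endoderm, basement membrane and SOX list members, up to 4 of each other list, the 15 largest ratios and the 10 largest differences in detection per direction. TMM factors came from edgeR 4.0.16 and size factors from DESeq2 1.42.0. Some genes that this rule names are not reported here, but they stay in every count.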

Additional observations from a re-analysis of the deposited data

Results flagged for a closer look

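Sox7 reads above the 3 that a count of 0 allows were also present in cells outside the comparison, which had too few genes to enter it. C47 held 100 Sox7 reads in 109541, or 913 CPM, the highest level of all 34 cells, together with 593 CPM of Sox17. C03 held 14 reads (64.4 CPM) and C74 held 4 (9.27 CPM). C17, with 3 reads, was at 46.1 CPM.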

How the results depend on the processing

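The alternative of 4400 to 5200 genes per cell was chosen after seeing the data. The 365 and 311 genes past the fold became 231 and 700 with Sox7 at 50 CPM, where 4 cells were positive and 111 and 172 of the genes were shared, 198 and 138 with a mean of at least 50 CPM, 784 and 785 with no filter on low values, 782 and 687 with the highest cell kept, and 1051 on the positive side with the mean of log2(CPM + 1). Under the other settings, leaving out any single cell included, both stayed within 1.5 times of 365 and 311, but not with the same genes: 196 and 103 of these were shared with at least 4500 genes, 188 and 127 with all 34 cells, and 178 and 166 with 4400 to 5200 genes. Of the 29 compared endoderm and basement membrane genes, 1 was past the fold on the positive side (Itgb1) and 0 on the negative. On the positive side the number was 3 with at least 200000 reads, 2 with TMM factors, 2 when 0.1 CPM was the pseudocount, 0 with DESeq2 size factors, 11 with the mean of log2(CPM + 1), 4 with the highest cell kept and 0 without the cell with Col1a2. The single gene was Snai1 with Sox7 at 50 CPM, Stra6 with all 34 cells, and Itga6 with 4400 to 5200 genes or without C25 or C26. On the negative side it was 5 with Sox7 at 50 CPM and 1 with at least 3500 genes, at least 4500 genes, all 34 cells, no filter, the highest cell kept or 4400 to 5200 genes. Leaving out each cell in turn gave 0 to 3 and 0 to 1. With Sox7 at 50 CPM the log2 ratios of Ccdc93 (−0.052) and Rnf14 (−0.40) turned negative, and with all 34 cells that of Mcmdc2 did (−0.41) and that of Ndrg3 turned positive (1.28). Of the 29 endoderm and basement membrane genes, 8 changed sign with Sox7 at 50 CPM (Itga6 to −0.90), 7 with all 34 cells and 7 with the mean of log2(CPM + 1), and none under the scaling or pseudocount alternatives. The cause was not tested. No paired analysis was possible because the cells carry no replicate numbers shared between groups. Depth limits the split itself, since 2 reads made C05 positive.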
